A study of Mus musculus with 6 samples.

Results

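Protein and lipid kinases and phosphatases are the enzymes that add and remove phosphate groups, and the members described here are the genes whose symbols carry the usual stems of these families (such as Map2k, Mapk, Camk, Cdk, Ppp, Ptpn, Ptpr, Pik3, Inpp and Dusp) and that were listed in all 6 libraries. They were 54 of the 2689 genes listed in all libraries, and they carried 88 of the 4658 alternative splicing events that could be compared. Ppp1r14d, which has the stem too, is not counted among them, since its 1 event was listed in a single Ctr library. Map3k7, Ptprc, Pak3 and Dusp16 also carry such stems and were left out by name. The stems also caught a gene that encodes neither kind of enzyme, Pdpn (podoplanin, a mucin-like membrane glycoprotein), and the scaffold or adaptor genes Mapk8ip1, Mapk8ip3, Mapk1ip1 and Mapkap1. Pdpk1, a kinase, was sorted with the Pdp stem. These genes were kept, as the stems chose them.

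The cells were primary mouse medullary thymic epithelial cells (mTECs), which show self-antigens to developing T cells. They were cultured in a fibrin gel above dermal fibroblasts of human origin and received lentiviral hairpin RNAs. Raver2 knockdown cells carried hairpin sh1 or sh2 against Raver2, a partner of the splicing repressor PTB, and Setd2 knockdown cells carried hairpin sh1 or sh2 against Setd2, a histone methyltransferase that marks transcribed genes. Ctr cells carried a hairpin against bacterial LacZ. Each group had 2 libraries, the viral vector expressed GFP in all of them, and viable MHC class II-positive GFP-positive cells were collected after 5 days. Libraries of a knockdown group thus differ in their hairpin. The starting mTECs had been sorted as CD45-, EpCAM+, Ly51- and MHC class II-positive. The labels give no strain, age, sex or number of animals and do not say whether libraries came from separate cultures, so each p-value reflects the variation among the libraries at hand, some of which may be technical.

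The measured value was an inclusion fraction from 0 (the alternative segment always skipped) to 1 (always included), 1 per event and library. Each library listed between 4777 and 4949 events, in 2765 to 2857 genes. The depth behind a fraction is unknown, so no counting interval can be given, and a fraction near 0 or 1 may rest on many reads or on few. Events are known by gene alone and are numbered here in their order within the gene; at the same position, member fractions correlated between libraries at 0.699 to 0.923 (Pearson, 52 events of 18 genes with several events), against -0.0485 to 0.143 when the order was shifted. Neither Raver2 nor Setd2 had a listed event, so the knockdowns could not be checked. Events were listed for 2 of 12 mTEC markers (Aire and Cd74), 1 of 10 fibroblast markers and 3 of 10 leukocyte markers, which says nothing of cell shares.

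As background, kinases work in cascades and are held in check by phosphatases, and both groups are built of catalytic cores with regulatory regions, targeting subunits and scaffolds that are often spliced in several forms. A skipped or included segment can alter where such an enzyme sits, what it binds or how its activity is controlled. In the CaM kinase II genes the variable linker between the regulatory and the association domain is a textbook case. In the thymic medulla, kinase cascades downstream of TNF family receptors are known to govern mTEC growth and maturation.

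Differences between groups were tested with limma, and an event passed the test where its p, adjusted over all 4658 events, was under 0.05. Of the 88 member events, 1 passed, and it belonged to Pdp1, the catalytic subunit of pyruvate dehydrogenase phosphatase, which switches the mitochondrial pyruvate dehydrogenase complex back on by removing phosphate. Under Raver2 knockdown its inclusion was 1.36e-06 with sh1 and 0.00356 with sh2. It was 1.0 in both Setd2 knockdown libraries, and 1.0 and 0.952 in the Ctr libraries. The Raver2 knockdown libraries were thus at the bottom of the scale and the other 4 at the top, with no overlap. The difference of Raver2 knockdown minus Ctr was -0.974 ± 0.0281 (SE; limma, adjusted p = 0.00369), and that of Raver2 minus Setd2 knockdown was -0.998 ± 0.0281 (limma, adjusted p = 0.00624). Setd2 knockdown minus Ctr was 0.0242 ± 0.0281 and did not pass (limma, adjusted p = 0.811). On a logit scale with 0.001 added, Raver2 knockdown against Ctr missed the threshold (limma, adjusted p = 0.0795), as did Raver2 against Setd2 knockdown (adjusted p = 0.110). The annotation (GENCODE M21 on GRCm38, the mm10 build) places the gene at chr4:11958184-11966452 on the minus strand and gives it 1 cassette exon, which lies outside the coding sequence. Whether the event concerns that exon is not known.

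For Raver2 knockdown against Ctr, 2.43% of all 4658 events passed (1.42% with a lower fraction), and 1 of 88 member events did, with a lower fraction. For Setd2 knockdown against Ctr, 2.23% of all events passed and 0 of 88 member events did (limma). For Raver2 against Setd2 knockdown, 0.73% of all events passed (0.322% lower) and 1 of 88 member events did, with a lower fraction. For the mean of both knockdowns minus Ctr, 3.07% of all events passed (1.74% lower) and 1 of 88 member events did, again Pdp1, at -0.475 ± 0.0243 (SE; limma, adjusted p = 0.00955), although only its Raver2 knockdown libraries stood apart. This call was lost on the logit scale with 0.01 added (limma, adjusted p = 0.103) or 0.001 added (0.343) and without Setd2 sh1 (0.0526). An unadjusted p under 0.05 was found for 6, 7, 5 and 5 member events in these comparisons, in the order given, against 12%, 11.6%, 6.12% and 12.8% of all events. The comparisons share libraries and are not independent of each other. The groups did not overlap for 33 member events in Raver2 knockdown against Ctr (16 higher and 17 lower, against 44% of all events, 20.7% higher and 23.4% lower), for 32 in Setd2 knockdown against Ctr (19 higher and 13 lower, against 42.5%, 21.2% higher and 21.3% lower) and for 26 in Raver2 against Setd2 knockdown (11 higher and 15 lower, against 33.8%, 15.3% higher and 18.4% lower). The member shares, at 37.5%, 36.4% and 29.5%, lay near those of all events and somewhat below them. Whether they differ was not tested, and some member events are copies or complements of each other. No minimum distance was required, for members or for all events, so events fixed at an end of the scale were counted too. Raver2 knockdown minus Ctr was 5.2e-09 in Ppp2r2a and -0.0005 in Ppp2r1b, for example, and both count as not overlapping.

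**Figure D1:**
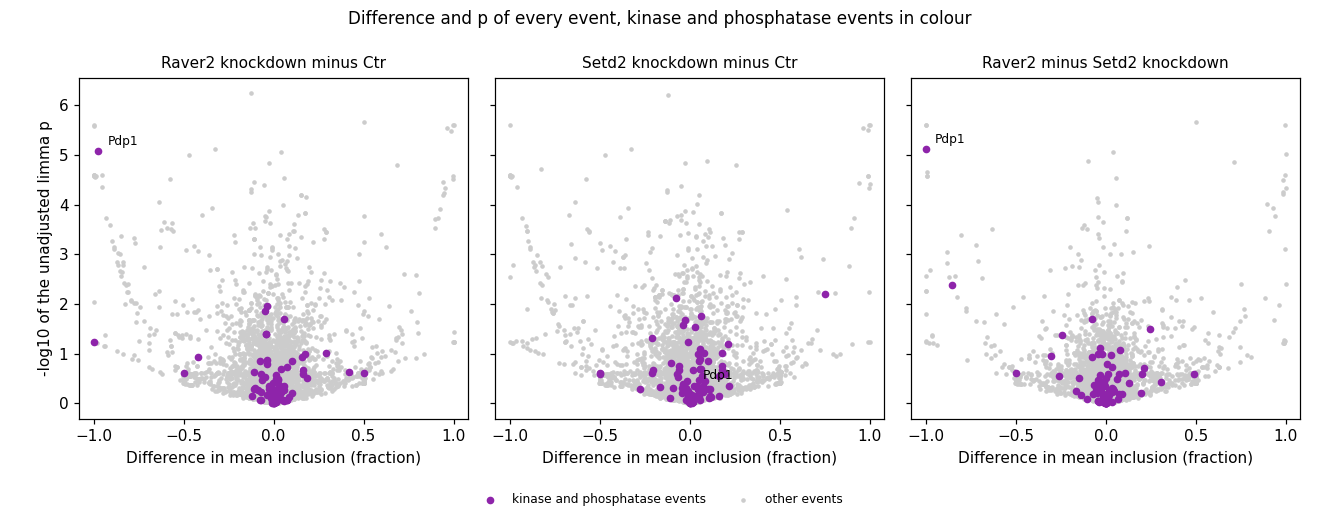
Difference in mean inclusion (horizontal axis, fraction) against -log10 of the unadjusted limma p (vertical axis) for Raver2 knockdown minus Ctr, Setd2 knockdown minus Ctr and Raver2 minus Setd2 knockdown. Each point is 1 of the 4658 events, the 88 kinase and phosphatase events are coloured, and Pdp1 is the member far to the left and high in the outer panels and near 0 in the middle one.

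The typical difference was small. The median absolute difference of the members was 0.0349 for Raver2 knockdown against Ctr (0.0423 over all events), 0.0508 for Setd2 knockdown against Ctr (0.0412) and 0.0321 for Raver2 against Setd2 knockdown (0.0261). More members than other events lay within the scale: 47 of 88 (53.4%) had all 6 fractions between 0.01 and 0.99, against 42.7% of the rest, and these are called mid-range events. Only 4 member events were below 0.01 in every library (Mapk8ip3 event 3, Camk2g event 1, Ppp2r1b and Ptpra), and 4 were above 0.99 in every library (Mapk8ip1, Camk1d event 1, Sgk2 event 2 and Ppp2r2a). The heatmap of the members shows these classes beside each other.

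**Figure D2:**
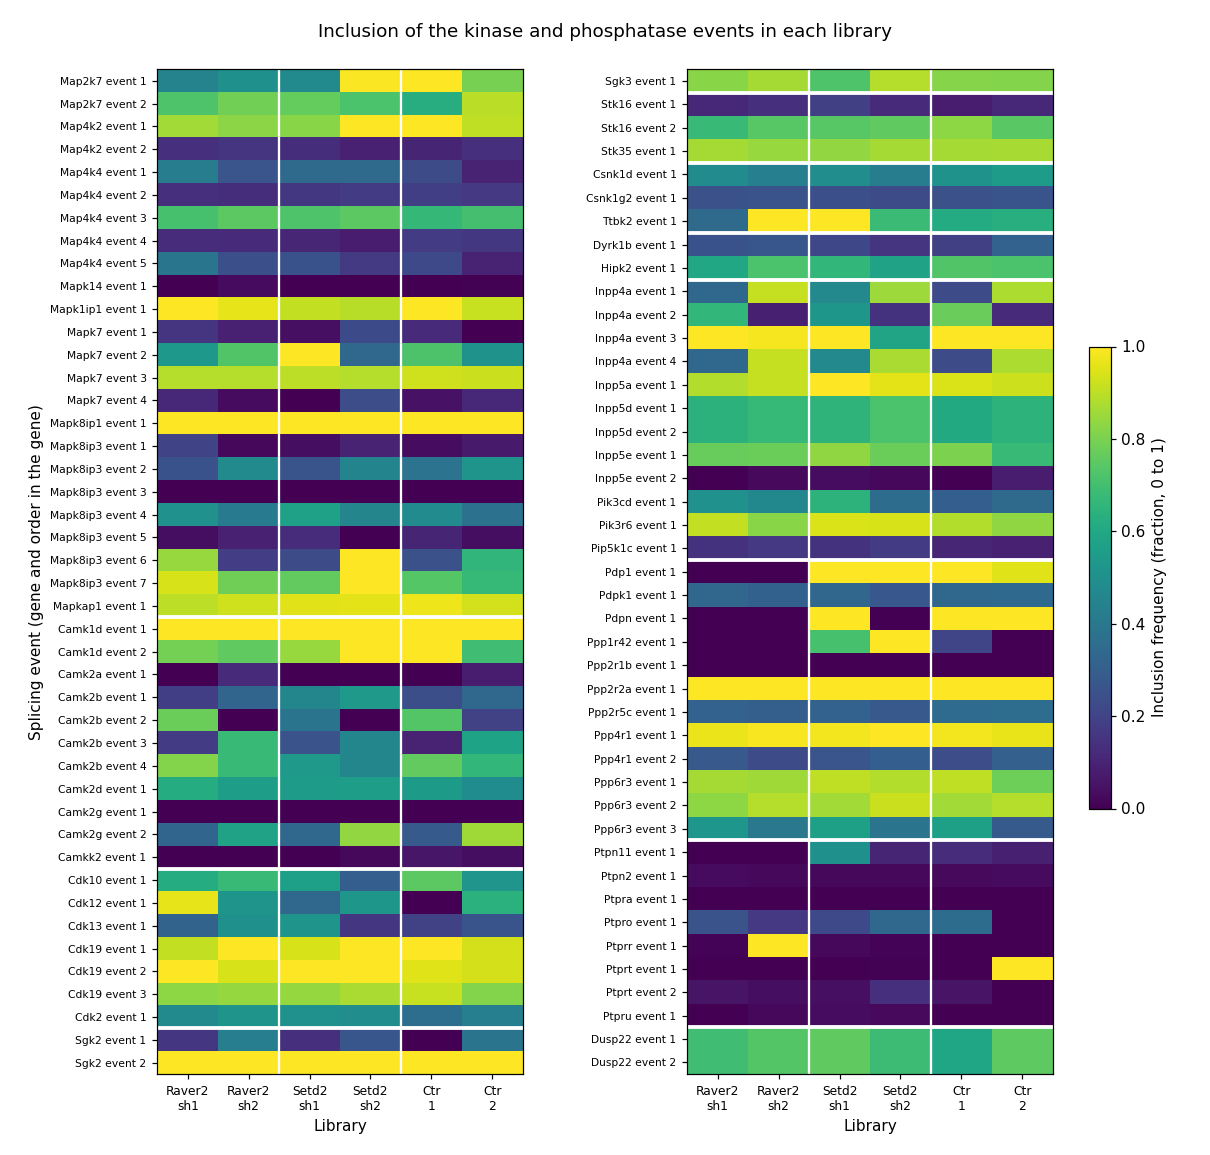
Inclusion fraction (colour, 0 to 1) of the member events but 1 (vertical axis) in the 2 Raver2 knockdown, 2 Setd2 knockdown and 2 Ctr libraries (horizontal axis), with white lines between groups of libraries and between roles. Many events keep one colour across all 6 libraries, while Pdp1 is dark in both Raver2 knockdown libraries alone.

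The MAP kinase cascade held 9 genes with 24 events, none of which passed the test. Map4k4, a STE20-type kinase at the head of the cascade to JNK, had 5 events. All 5 separated Raver2 knockdown from Ctr without overlap, 3 with higher and 2 with lower fractions, where 44% of all events did so. Events of a single gene are not independent observations. Events 1 and 5 had similar fractions in the Raver2 knockdown and Ctr libraries. Event 1 was included at 0.419 and 0.265 under Raver2 knockdown, at 0.344 and 0.346 under Setd2 knockdown, with 0.233 and 0.101 in Ctr. Every knockdown library was above both Ctr libraries, but the Raver2 hairpins differed from each other by nearly as much as their mean differed from Ctr. Against Ctr, Raver2 knockdown differed by 0.175 ± 0.0804 and Setd2 knockdown by 0.178 ± 0.0804 (SE; limma, adjusted p = 0.576 and 0.555).

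Event 4 of Map4k4 ran the other way, at 0.126 and 0.121 under Raver2 knockdown, 0.109 and 0.0755 with Setd2 hairpins and 0.175 and 0.162 in Ctr. All 4 knockdown libraries were below both Ctr libraries, and for both knockdowns together the difference was -0.0606 ± 0.0125 (SE; limma, adjusted p = 0.165). Event 5 was at 0.389 and 0.245 under Raver2 knockdown, 0.250 and 0.169 in Setd2 knockdown cells and 0.220 and 0.0979 in Ctr, where Setd2 knockdown overlapped Ctr. Event 2, at 0.140 and 0.132 under Raver2 knockdown, 0.161 and 0.175 under Setd2 knockdown, with 0.186 and 0.167 in Ctr, differed by -0.0403 ± 0.0130 between Raver2 knockdown and Ctr (SE; limma, adjusted p = 0.387). Event 3 had the highest inclusion of the 5, between 0.664 and 0.748 in all libraries, with both Ctr libraries below all knockdown libraries. The annotation places Map4k4 at chr1:39900913-40026310 and gives it 11 coding transcripts and 5 cassette exons. The exons that start at 40003757 and 40003763 overlap and share their end, 40003987, so the exons cannot be matched one to one with the events.

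Mapk7 (ERK5, a MAP kinase with a long C-terminal tail) had 4 events. Event 3 was at 0.889 and 0.888 under Raver2 knockdown, 0.902 and 0.888 with Setd2 hairpins and 0.926 and 0.920 in Ctr. The whole range over 6 libraries was 0.0385, and all 4 knockdown libraries lay below both Ctr libraries. The differences of -0.0346 ± 0.00738 for Raver2 knockdown and -0.0283 ± 0.00738 for Setd2 knockdown did not pass (SE; limma, adjusted p = 0.208 and 0.279). Events 1 and 4 of Mapk7 stayed below 0.24. Event 2 varied most within a group and was at 1.0 and 0.340 in the Setd2 knockdown libraries.

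Map2k7, a kinase that activates JNK directly, was at 0.448 and 0.502 (event 1) under Raver2 knockdown, 0.475 and 0.992 in Setd2 knockdown cells and 1.0 and 0.794 in Ctr. Raver2 knockdown was below Ctr without overlap, with a difference of -0.422 in the means, but the Setd2 hairpins spanned the distance between the groups (limma, adjusted p = 0.601 for Raver2 knockdown against Ctr). Map4k2, another STE20-type kinase, also had Raver2 knockdown below Ctr in event 1, at 0.863 and 0.827 against 1.0 and 0.904 (limma, adjusted p = 0.712). There too the Setd2 hairpins spanned the distance between these groups, at 0.821 and 1.0. Event 2 stayed between 0.0909 and 0.153 in Map4k2 and between 0.625 and 0.895 in Map2k7. Mapk14, the p38 alpha kinase, stayed below 0.03 in all libraries. Mapkap1, the SIN1 subunit of the mTORC2 kinase complex, was at 0.902 and 0.928 under Raver2 knockdown, 0.954 and 0.959 under Setd2 knockdown, with 0.973 and 0.930 in Ctr (limma, adjusted p = 0.636 for Raver2 knockdown against Ctr). Mapk1ip1 was at 1.0 and 0.964 under Raver2 knockdown, 0.908 and 0.893 with Setd2 hairpins and 1.0 and 0.915 in Ctr.

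Mapk8ip3 (JIP3, a scaffold that links JNK kinases to kinesin motors) had the most events of any member, 7. Event 7 was at 0.940 and 0.785 under Raver2 knockdown, 0.759 and 1.0 in Setd2 knockdown cells and 0.735 and 0.670 in Ctr, with every knockdown library above both Ctr libraries (limma, adjusted p = 0.712 and 0.699 for Raver2 and Setd2 knockdown). Event 6 was the least steady, at 0.844 and 0.180 under Raver2 knockdown, 0.230 and 1.0 with Setd2 hairpins and 0.249 and 0.659 in Ctr. Events 1 and 5 were at or below 0.204 in every library, event 2 lay between 0.253 and 0.517 and event 4 between 0.374 and 0.573. Events of the same gene thus ran from full skipping (event 3) to high inclusion (event 7).

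The calmodulin-dependent kinases, which relay calcium signals, held 6 genes with 11 events, and none passed. Camk2b, the beta subunit of CaM kinase II, had Setd2 knockdown apart from both other groups. Its event 1 was at 0.185 and 0.324 under Raver2 knockdown, 0.458 and 0.542 under Setd2 knockdown, with 0.241 and 0.338 in Ctr. The Setd2 knockdown libraries were above all others, in the mean by 0.211 ± 0.0807 over Ctr, and Raver2 minus Setd2 knockdown was -0.245 ± 0.0807 (SE; limma, adjusted p = 0.474 and 0.793). Event 4 of Camk2b was its exact complement in every library, so these are one measurement, although the trend of variance with the mean gave event 4 a slightly smaller error (adjusted p = 0.427 and 0.698, limma). The annotation gives Camk2b 10 coding transcripts and 7 cassette exons, the most exons of those reported here.

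Camk2d, the delta subunit, was at 0.620 and 0.560 under Raver2 knockdown, 0.554 and 0.556 with Setd2 hairpins and 0.544 and 0.485 in Ctr; the 3 groups did not overlap but differed by at most 0.0754 in their means (limma, adjusted p = 0.712 for Raver2 knockdown against Ctr). Camkk2, the kinase upstream of CaM kinases I and IV and of AMPK, was at 2.28e-06 and 1.84e-06 under Raver2 knockdown, 1.84e-06 and 0.0198 in Setd2 knockdown cells and 0.0616 and 0.0382 in Ctr. Its Ctr libraries were thus the only ones above 0.02, and the mean of both knockdowns minus Ctr was -0.0449 ± 0.00978 (SE; limma, adjusted p = 0.180). Camk2a was at or near 0 in 4 libraries and at 0.122 and 0.0805 in 1 Raver2 knockdown and 1 Ctr library. Camk1d event 2 was at 0.792 and 0.756 under Raver2 knockdown, 0.844 and 1.0 under Setd2 knockdown, with 1.0 and 0.693 in Ctr.

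**Figure D3:**
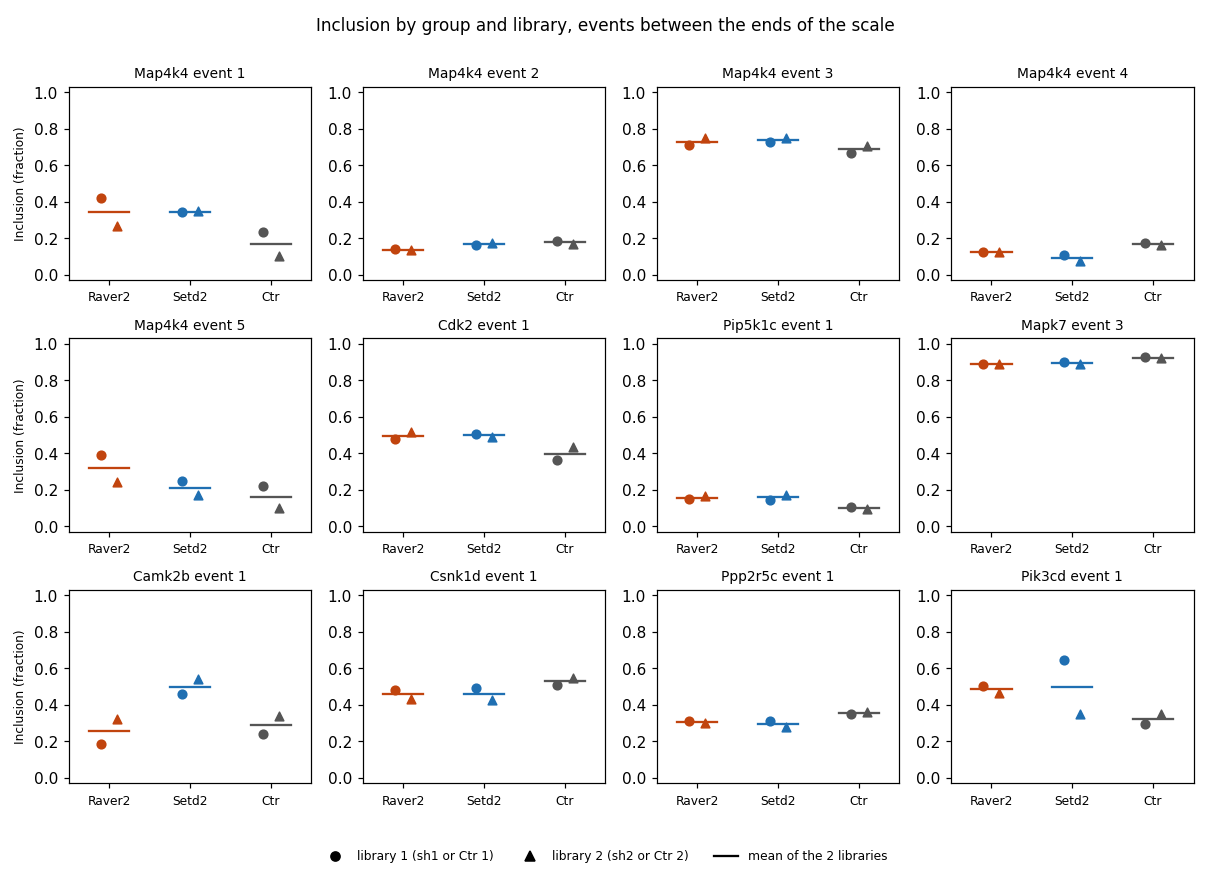
Inclusion fraction (vertical axis, 0 to 1) of 12 events in each library of Raver2 knockdown, Setd2 knockdown and Ctr (horizontal axis), with circles for library 1, triangles for library 2 and a line at the group mean. In Cdk2 and Pip5k1c both knockdowns lie above Ctr, in Mapk7 event 3 and Ppp2r5c below it, and in Camk2b the Setd2 knockdown libraries alone are high.

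The cyclin-dependent kinases held 5 genes with 7 events, and none passed. Cdk2, which drives entry into and passage through DNA replication, was at 0.477 and 0.517 under Raver2 knockdown, 0.504 and 0.490 with Setd2 hairpins and 0.360 and 0.432 in Ctr. The 4 knockdown libraries fell within a narrow band above both Ctr libraries, and the mean of both knockdowns was higher by 0.101 ± 0.0470 (SE; limma, adjusted p = 0.548). Rodent cells are known to make a longer Cdk2 protein by including an extra exon. The annotation (GENCODE M21, GRCm38) has 1 cassette exon in Cdk2, at chr10:128699976-128700119 on the minus strand inside the coding sequence, and the gene had 1 event, so it is shown as the candidate segment, with the 10 neighbouring transcript bases on each side in lower case and the exon in capitals:
Cdk2: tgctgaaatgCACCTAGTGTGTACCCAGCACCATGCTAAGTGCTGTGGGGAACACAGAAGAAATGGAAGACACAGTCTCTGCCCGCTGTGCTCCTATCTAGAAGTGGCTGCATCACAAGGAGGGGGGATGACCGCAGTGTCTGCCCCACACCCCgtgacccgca
It is 144 bases long, which adds 48 codons without a change of frame. That the event concerns this exon is not given in the files.

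Cdk12 and Cdk13, which phosphorylate RNA polymerase II together with cyclin K, were less steady. Cdk13 was at 0.319 and 0.501 under Raver2 knockdown, 0.518 and 0.157 in Setd2 knockdown cells and 0.193 and 0.261 in Ctr; Raver2 knockdown did not overlap Ctr, with a difference of 0.183 ± 0.155 (SE; limma, adjusted p = 0.741). Cdk12 was at 0.965 and 0.516 under Raver2 knockdown, 0.336 and 0.531 with Setd2 hairpins and 0.00213 and 0.639 in Ctr, so the groups overlapped. Cdk10 was at 0.618 and 0.675 under Raver2 knockdown, against 0.566 and 0.298 under Setd2 knockdown, with 0.749 and 0.522 in Ctr (limma, adjusted p = 0.964 for Raver2 minus Setd2 knockdown). The 3 events of Cdk19, a kinase of the Mediator complex, lay between 0.815 and 1.0 in every library.

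The AGC kinases Sgk2 and Sgk3, relatives of AKT that respond to PI 3-kinase signals, held 3 events, and none passed. Event 2 of Sgk2 was at 1.0 in every library. Sgk2 event 1 ranged from 0.000278 to 0.428, with the lowest library in Ctr and the highest under Raver2 knockdown. Sgk3, a kinase of endosomes, was at 0.821 and 0.865 under Raver2 knockdown, 0.724 and 0.889 with Setd2 hairpins and 0.817 and 0.815 in Ctr.

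The remaining protein kinases were close to constant, varied within groups or, as in Csnk1d and Hipk2, had a knockdown group apart from Ctr. None of their events passed. Stk35 lay between 0.836 and 0.870 in all 6 libraries, and Csnk1g2, a membrane-bound casein kinase 1, between 0.230 and 0.261. Stk16 event 1 was at 0.114 and 0.133 under Raver2 knockdown, 0.191 and 0.120 in Setd2 knockdown cells and 0.0790 and 0.114 in Ctr, and all knockdown libraries were at or above the higher Ctr library. Its event 2 was at 0.676 and 0.742 under Raver2 knockdown, 0.740 and 0.756 with Setd2 hairpins and 0.829 and 0.744 in Ctr. Csnk1d, the casein kinase 1 that phosphorylates the clock protein PER, was at 0.483 and 0.433 under Raver2 knockdown, 0.490 and 0.426 under Setd2 knockdown, with 0.512 and 0.549 in Ctr. Its 4 knockdown libraries were below both Ctr libraries, with a difference of -0.0725 ± 0.0473 in the mean (SE; limma, adjusted p = 0.640). Hipk2, a nuclear kinase of the stress response, had Setd2 knockdown at 0.662 and 0.577, against 0.728 and 0.715 in Ctr, while Raver2 knockdown spanned 0.601 to 0.718. Dyrk1b was at 0.250 and 0.267 under Raver2 knockdown, 0.218 and 0.151 with Setd2 hairpins and 0.190 and 0.314 in Ctr. Ttbk2, a tau-tubulin kinase needed for cilia, was steady in Ctr at 0.615 and 0.626 and far apart between hairpins, at 0.347 and 1.0 under Raver2 knockdown and 1.0 and 0.682 under Setd2 knockdown.

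The phosphoinositide kinases and phosphatases, which write and erase lipid signals on membranes, held 7 genes with 12 events, and none passed. Setd2 knockdown was above Ctr without overlap for 6 of the 12 and below it for 0; over all events, 21.2% were above and 21.3% below. These 6 include both events of Inpp5d, which held the same 6 values and are one measurement. Pip5k1c, which makes the phosphoinositide PIP2 at focal adhesions and synapses, was at 0.148 and 0.165 under Raver2 knockdown, 0.146 and 0.173 in Setd2 knockdown cells and 0.107 and 0.0923 in Ctr. All 4 knockdown libraries were above both Ctr libraries, in the means by 0.0571 ± 0.0147 for Raver2 and 0.0601 ± 0.0147 for Setd2 knockdown (SE; limma, adjusted p = 0.283 and 0.252). Its annotation at chr10:81292963-81319973 has 2 cassette exons of equal length, 78 bases, so no single candidate can be named.

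Pik3cd, the delta catalytic subunit of PI 3-kinase, was at 0.504 and 0.466 under Raver2 knockdown, 0.648 and 0.352 under Setd2 knockdown, with 0.297 and 0.348 in Ctr. Every knockdown library was above both Ctr libraries, the lower Setd2 hairpin only just (limma, adjusted p = 0.712 and 0.699 for Raver2 and Setd2 knockdown). Pik3r6, a regulatory subunit of PI 3-kinase gamma, was at 0.910 and 0.824 under Raver2 knockdown, 0.944 and 0.941 with Setd2 hairpins and 0.886 and 0.834 in Ctr (limma, adjusted p = 0.555 for Setd2 knockdown against Ctr). Inpp5d (SHIP1, a phosphatase of blood cells) was at 0.643 and 0.669 under Raver2 knockdown, 0.651 and 0.718 in Setd2 knockdown cells and 0.607 and 0.646 in Ctr. Inpp5a, a phosphatase of soluble inositol phosphates, was at 0.886 and 0.914 under Raver2 knockdown, 1.0 and 0.958 under Setd2 knockdown, with 0.944 and 0.926 in Ctr. There the knockdowns lay on either side of Ctr, and Raver2 minus Setd2 knockdown was -0.0791 ± 0.0201 (SE; limma, adjusted p = 0.585). Inpp5e, a phosphatase of the cilium, had event 1 between 0.677 and 0.835 and event 2 below 0.08 in all libraries.

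Inpp4a, a phosphatase of the PI 3-kinase pathway, was split within every group. Its event 1 was at 0.338 and 0.914 under Raver2 knockdown, 0.470 and 0.853 with Setd2 hairpins and 0.229 and 0.876 in Ctr. Each group thus had 1 library below 0.5 and 1 above 0.85, and the group means of 0.626 under Raver2 knockdown, 0.662 under Setd2 knockdown and 0.553 in Ctr lie between the libraries. Event 2 was the exact complement of event 1, and event 4 differed from event 1 only slightly, in the Setd2 sh2 library most, so the 3 are close to one measurement. Event 3 was at 1.0 and 0.987 under Raver2 knockdown, 1.0 and 0.583 with Setd2 hairpins and 1.0 in both Ctr libraries, so Setd2 sh2 alone was low. It did not pass with all libraries. Without Setd2 sh1, Setd2 knockdown minus Ctr was -0.417 in this event, which then rests on Setd2 sh2 alone. Camk2g event 2 was split in the same way, at 0.326 and 0.574 under Raver2 knockdown, 0.336 and 0.837 in Setd2 knockdown cells and 0.282 and 0.859 in Ctr. Camk2b event 3 was at 0.176 and 0.676 under Raver2 knockdown, 0.258 and 0.458 with Setd2 hairpins and 0.0981 and 0.579 in Ctr. Its event 2 was at 0.775 and 1.66e-05 under Raver2 knockdown, 0.383 and 6.64e-05 with Setd2 hairpins and 0.733 and 0.198 in Ctr. In Inpp4a events 1, 2 and 4, Camk2g event 2 and Camk2b events 2 and 3, the libraries of every group lay further apart than the group means. In Inpp4a event 3 only the Setd2 hairpins did.

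In all, 12 member events differed by more than 0.1 between the libraries of each of the 3 groups. In 9 of these 12, from 6 genes, the lower library carried the same number (sh1 or Ctr 1, or else sh2 or Ctr 2) in all groups, against 63 of 281 such events (22.4%) in the rest of the series. The Ctr numbers follow only the order of deposit, the labels name no batch, and several of the 9 are copies of each other, so this is a description of the libraries; what they share was not tested. Within the knockdowns, the difference of sh1 minus sh2 under Raver2 knockdown correlated with that under Setd2 knockdown at 0.0660 over the 88 events and 0.0146 over all events (Pearson, across events, which are not independent).

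**Figure D4:**
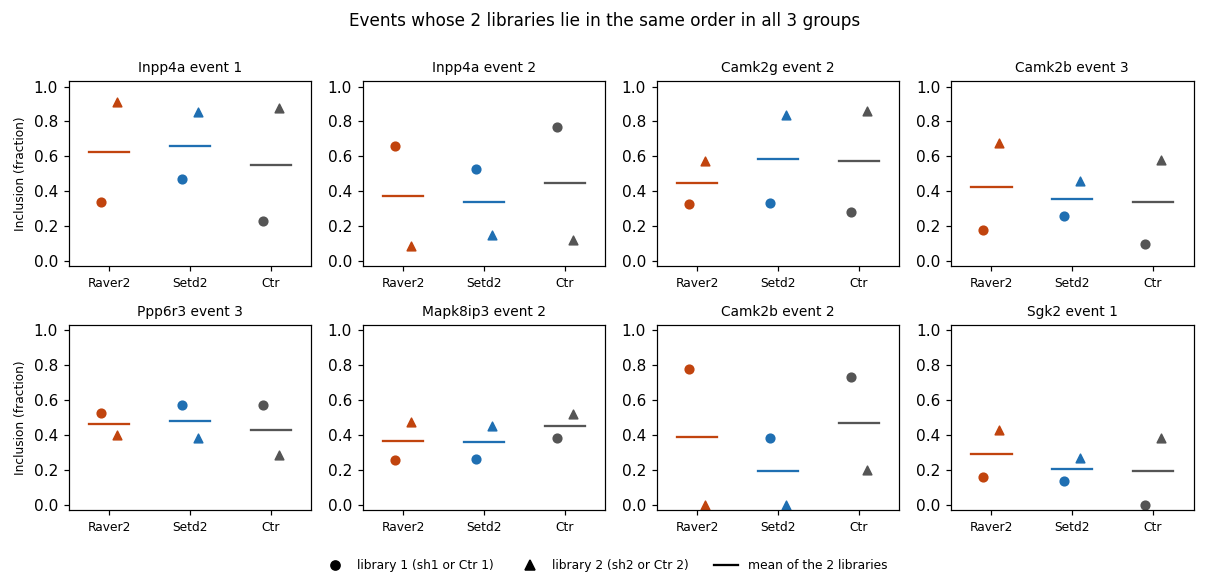
Inclusion fraction (vertical axis, 0 to 1) in the Raver2 knockdown, Setd2 knockdown and Ctr libraries (horizontal axis) for 8 of the 9 events split in the same order in all groups; Inpp4a event 4, nearly equal to event 1, is left out. Circles are library 1, triangles library 2 and lines group means, and the distance between circle and triangle exceeds that between the means in each panel.

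The serine/threonine phosphatases, with the Pdp stem, held 9 genes with 12 events, of which Pdp1 passed as described. Pdpn, caught by its symbol, came near the same pattern. It was at 0.00180 and 0.00142 under Raver2 knockdown, 1.0 and 0.00309 under Setd2 knockdown, with 1.0 in both Ctr libraries. The Raver2 knockdown libraries and Setd2 sh2 were at the bottom of the scale, and Setd2 sh1 with Ctr was at the top. The difference of Raver2 knockdown minus Ctr was close to the full scale, -0.998 ± 0.368 (SE; limma, adjusted p = 0.434). All groups share one estimate of the spread, and the SD within Setd2 knockdown was 0.705. With only the Raver2 knockdown and Ctr libraries in the fit, Pdpn passed (limma, adjusted p = 0.0398), and it passed without Setd2 sh1 (adjusted p = 0.0379) or without Setd2 sh2 (adjusted p = 0.0337). Pdpn had 1 event and 1 annotated cassette exon, at chr4:143270523-143270561 on the minus strand inside the coding sequence:
Pdpn: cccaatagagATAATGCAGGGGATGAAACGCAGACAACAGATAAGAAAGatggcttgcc
It is 39 bases long and adds 13 codons. Whether the Pdpn event concerns this exon is not known.

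Ppp1r42, a leucine-rich-repeat regulatory subunit of protein phosphatase 1, was at 0 and 2.83e-06 under Raver2 knockdown, 0.711 and 0.998 with Setd2 hairpins and 0.207 and 2.64e-06 in Ctr. The Setd2 knockdown libraries were above all others, in the mean by 0.750 ± 0.135 over Ctr, the largest difference of a member in that comparison, and Raver2 minus Setd2 knockdown was -0.854 ± 0.135 (SE; limma, adjusted p = 0.150 and 0.255). Ppp2r5c, a targeting subunit of protein phosphatase 2A, was at 0.314 and 0.301 under Raver2 knockdown, 0.313 and 0.280 in Setd2 knockdown cells and 0.351 and 0.359 in Ctr. Its 4 knockdown libraries were below both Ctr libraries, with a difference of -0.053 ± 0.0338 in the mean (SE; limma, adjusted p = 0.640). Pdpk1 (PDK1, the kinase that activates AKT) was at 0.329 and 0.311 under Raver2 knockdown, 0.330 and 0.271 under Setd2 knockdown, with 0.337 and 0.340 in Ctr, again below Ctr in every library, by small margins. Ppp4r1, a subunit of protein phosphatase 4, had event 1 at 0.965 or more and event 2 between 0.231 and 0.306 in all libraries. Events 1 and 2 of Ppp6r3, a subunit of protein phosphatase 6, lay between 0.781 and 0.918, while its event 3 was at 0.525 and 0.401 under Raver2 knockdown, 0.569 and 0.383 with Setd2 hairpins and 0.569 and 0.283 in Ctr.

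The receptor-type and cytosolic tyrosine phosphatases, 7 genes with 8 events, sat mostly at the bottom of the scale: 1 of the 8 was mid-range, Ptpn2. This phosphatase, which restrains JAK and STAT signalling, was at 0.0282 and 0.0232 under Raver2 knockdown, 0.0222 and 0.0205 in Setd2 knockdown cells and 0.0265 and 0.030 in Ctr, a range of 0.0095, the narrowest of the mid-range members. Ptpru was at 3.31e-05 and 0.0227 under Raver2 knockdown, 0.0335 and 0.0268 under Setd2 knockdown, with 2.02e-05 and 6.25e-05 in Ctr. Both Setd2 knockdown libraries and Raver2 sh2 were above the Ctr level near 0, and Setd2 knockdown minus Ctr was 0.0301 ± 0.00869 (SE; limma, adjusted p = 0.327). Ptpru also had 1 event and 1 cassette exon, at chr4:131794961-131794990 on the minus strand, inside the coding sequence, shown as the shortest of the candidates:
Ptpru: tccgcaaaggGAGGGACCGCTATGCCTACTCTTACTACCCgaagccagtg
It is 30 bases long and adds 10 codons. Whether the Ptpru event concerns this exon is not known.

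A single library set apart other tyrosine phosphatases. Ptprr, a receptor-type phosphatase of MAP kinases, was at 0.0114 and 1.0 under Raver2 knockdown, 0.0213 and 0.0112 with Setd2 hairpins and 0.00191 and 0.00182 in Ctr. Ptprt event 1 was at 0.000455 and 0.000246 under Raver2 knockdown, 0.000285 and 0.00399 in Setd2 knockdown cells and 0.000497 and 0.999 in Ctr. Raver2 sh2 alone was high in Ptprr and a lone Ctr library in Ptprt, and neither passed (limma, adjusted p = 0.712 for Raver2 knockdown against Ctr in both). With Raver2 sh1 left out, Raver2 knockdown minus Ctr was 0.998 in Ptprr. With Ctr 1 left out, it was -0.999 in Ptprt event 1. Each of these differences then rests on the lone outlying library of its group. Ptprt event 2 stayed at or below 0.135. Ptpn11 (SHP2, a phosphatase that promotes RAS signalling) was at 5.76e-05 and 4.00e-05 under Raver2 knockdown, 0.502 and 0.105 under Setd2 knockdown, with 0.127 and 0.0871 in Ctr, with both Raver2 knockdown libraries near 0 (limma, adjusted p = 0.872 against Ctr). Without Setd2 sh2, Setd2 knockdown minus Ctr was 0.395 in Ptpn11 and Raver2 minus Setd2 knockdown was -0.502. Both then rest on Setd2 sh1 alone for that group. Ptpro ranged from 0.000141 to 0.354, both of these in Ctr. Dusp22, the lone dual-specificity phosphatase among the members, had a pair of events with identical values between 0.592 and 0.755.

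**Figure D5:**
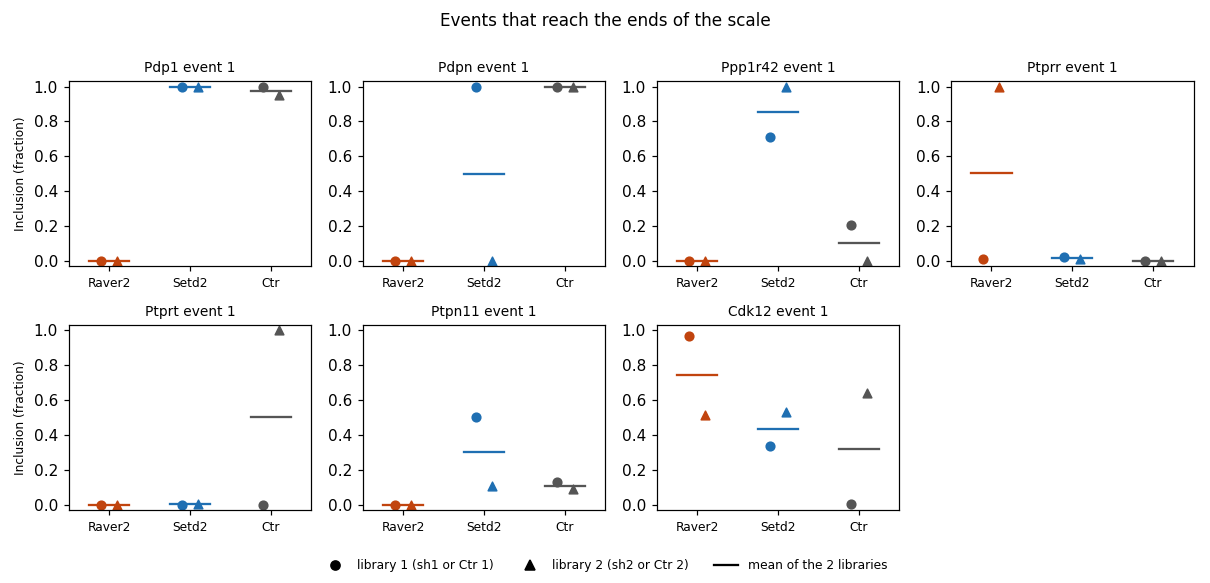
Inclusion fraction (vertical axis, 0 to 1) in the Raver2 knockdown, Setd2 knockdown and Ctr libraries (horizontal axis) of 7 events that reach the ends of the scale, with circles for library 1, triangles for library 2 and lines for group means. In Pdp1 both Raver2 knockdown libraries are at 0 and the others above 0.95, while in Pdpn, Ptprr and Ptprt the libraries of 1 group lie at or near opposite ends.

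Complete switches, with a fraction below 0.01 in 1 library and above 0.99 in another, occurred in 5 member events (5.68%), Pdp1, Pdpn, Ppp1r42, Ptprr and Ptprt event 1, against 10.9% of the rest of the series. In 3 of these 5, Pdp1, Ppp1r42 and Ptprr, no group held both ends, although Ptprr had 0.0114 in 1 Raver2 knockdown library and 1.0 in the other. Libraries of the same group differed by more than 0.1 in 27.3% of member events under Raver2 knockdown, 35.2% under Setd2 knockdown and 33.0% in Ctr. In the rest of the series this was so for 22.8% of events under Raver2 knockdown, 25.3% under Setd2 knockdown and 27.6% in Ctr.

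Considering both knockdowns against Ctr, all 4 knockdown libraries were on one side of both Ctr libraries for 16 member events, 9 above and 7 below, or 18.2% of them. This was so for 24.2% of all events, 11.9% above and 12.3% below. Those above were Map4k4 events 1 and 3, Mapk8ip3 event 7, Stk16 event 1, Camk2d, Cdk2, Pik3cd, Pip5k1c and Ptprr, and those below were Map4k4 event 4, Mapk7 event 3, Camkk2, Csnk1d, Pdpk1, Pdpn and Ppp2r5c. Pdpn is counted below although Setd2 sh1, at 0.9997, was at the top of the scale with the Ctr libraries, at 0.999998. None of these 16 passed the test, and their directions in the comparisons are not independent, since both knockdowns are set against the same Ctr libraries.

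The annotation gives the members 2 to 12 coding transcripts, with a median of 4. At least 1 cassette exon was annotated in 33 of the 54 genes and none in 21. Of 70 cassette exons, 53 lay inside the coding sequence, and 49 of these had a length divisible by 3. Overlapping forms of an exon with different starts, as in Map4k4, Inpp4a and Ppp2r1b, were counted separately. Of 202 other kinases and phosphatases outside the stems, 53 could be compared, with 90 events. None of these 90 passed in any of the 4 comparisons (limma). An unadjusted p under 0.05 was found for 7 of them in Raver2 knockdown against Ctr, 11 in Setd2 knockdown against Ctr, 6 in Raver2 against Setd2 knockdown and 8 for the mean of both knockdowns against Ctr, where 12%, 11.6%, 6.12% and 12.8% of all events had one. Their median absolute difference was 0.0317 for Raver2 knockdown against Ctr and 0.0521 for Setd2 knockdown against Ctr.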

How the data were processed

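The authors deposited, for each of the 6 libraries, gene symbols with the inclusion frequency of an alternative splicing event as a fraction between 0 and 1. Per the labels' protocols, SMART-seq v4 chemistry for very low input amplified the RNA and Nextera XT made the libraries. The submitters' processing notes name TopHat2, Cufflinks, Trimmomatic 0.39 and the mm10 build. The roles of these tools, the way a fraction was computed and its coverage were not given in the sources used here. Thin coverage can place fractions at 0 or 1, and with no coverage no minimum could be applied.

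Members were found by symbol. Events were matched by gene and order within the gene among genes listed in all libraries with the same number of events. All 4658 events were fitted with limma 3.58.1 (R 4.3.3) on the fractions, with a mean per group, an empirical Bayes trend of variance with mean, all 6 libraries in one fit, two-sided contrasts and Benjamini-Hochberg adjustment over all events at 0.05. Errors of differences are model SEs. Groups hold 2 libraries; groups that do not overlap have every library of one above every library of the other. The 16 settings tried varied the scale, variance model, filters and libraries, and hairpin number as a block. The labels do not say whether libraries with the same hairpin number share a culture or batch. The difference of sh1 minus sh2 correlated between the knockdowns at 0.0146 over all events, and pairing was not tested further. Members, role groups and lists were chosen with earlier results of these data known. Named events were those past the threshold, the 10 highest and 10 lowest per comparison by moderated t, mid-range events with groups apart by at least 0.1, genes with 4 or more events, and the steadiest and widest of each role; others were named to account for the members, and 1 member is not reported here by name, though it is counted. Positions and exons come from GENCODE M21 by symbol, which matched all 54 genes; a cassette exon is one that a coding transcript skips between exons it shares with another. Python 3.11.15, pandas 2.3.3, numpy 2.4.6 and matplotlib 3.10.9 were used.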

Additional observations from a re-analysis of the deposited data

Results flagged for a closer look

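Pdp1 is singled out because its response differed between the knockdowns, by a test of that difference: Raver2 minus Setd2 knockdown was -0.998 on the fraction scale (limma, adjusted p = 0.00624), and it missed the threshold on a logit scale with 0.001 added (adjusted p = 0.110). Both Raver2 knockdown libraries were below 0.01, and both Setd2 knockdown libraries were above 0.99. The depth behind these fractions is unknown.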

How the results depend on the processing

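Each group has 2 libraries, and the read depth behind the fractions is unknown. The member count of 1 for Raver2 knockdown against Ctr was 0 on a logit scale with 0.001 added, 0 among mid-range events only (where Pdp1 is not included) and 2 with only the compared libraries in the fit, where Pdpn was added. For Raver2 against Setd2 knockdown it was 0 on the logit scale with 0.001 added and 0 among mid-range events. For the mean of both knockdowns it was 0 on the logit scale with 0.01 or 0.001 added and 0 among mid-range events. The count of 0 for Setd2 knockdown against Ctr was 0 under all of these. Pdp1 had an adjusted p (limma) of 0.0795 for Raver2 knockdown against Ctr on the logit scale with 0.001 added, the lone loss among 14 alternatives, over which it ranged from 0.000778. Against Setd2 knockdown its adjusted p was 0.110 on that scale.

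With the hairpin number as a replicate block over the 4 knockdown libraries, 0 member events and 0 of all events passed for Raver2 against Setd2 knockdown, against 1 and 34 without the block, and Pdp1 had an adjusted p of 0.504 (limma). The labels do not say whether libraries with the same number form pairs. No paired analysis was possible for Ctr because its libraries carry no hairpin number.

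Leaving out each library in turn gave 1 to 2 member events for Raver2 knockdown against Ctr, 0 to 2 for Setd2 knockdown against Ctr, 1 to 3 for Raver2 against Setd2 knockdown and 1 to 2 for the mean of both; a group left with 1 library was assumed to vary like the others. The added events were Ptprt event 1 without Ctr 1, Ptprr without Raver2 sh1, Pdpn and Inpp4a event 3 without Setd2 sh1, and Pdpn and Ptpn11 without Setd2 sh2. Without Setd2 sh1, Pdp1 was at an adjusted p of 0.0526 for the mean of both knockdowns. Stability was counted for the 23 member differences with an unadjusted p under 0.05 (limma) with the main settings. Of their 325 values under the alternatives, 319 kept their direction and their side of the threshold, 6 of Pdp1 lost the threshold and 0 reversed. Only Pdp1 had passed with the main settings, so the other events had no call to lose. Pdpn, Ptprr, Ptprt event 1, Inpp4a event 3 and Ptpn11 were not in this count.

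Over all events, the count of 113 for Raver2 knockdown against Ctr became 75 with only the compared libraries, 10 among mid-range events, 38 among genes with 1 event and 74 to 291 when 1 library was left out. The count of 104 for Setd2 knockdown against Ctr became 0, 6, 37 and 48 to 279 under the same settings. The count of 34 for Raver2 against Setd2 knockdown became 53 on the logit scale with 0.001 added, 0 among mid-range events, 12 among genes with 1 event and up to 119 without 1 library, and the count of 143 for the mean of both became 21, 52 and up to 297 among mid-range events, genes with 1 event and without 1 library.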
